A study of Mus musculus with 2 samples.

Results

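*Gip*, which encodes the incretin hormone glucose-dependent insulinotropic polypeptide, and 9 genes that lead with it in intestinal K cells (*Fabp5*, *Rbp4*, *Gatm*, *Cd44*, *Pkib*, *Plcxd3*, *Sphkap*, *Nnat* and *Lpl*) were followed through the cell types of the mouse small intestine. Each of the 10 symbols matched a single row among the 32285 genes of the count matrices. The 10 had been picked as leading genes of the *Gip*-rich cells of these same libraries. Their height in those cells, and the libraries' difference where it had entered that choice, are therefore given as descriptions without a test. Single-cell RNA-Seq had been performed on Tomato+ epithelial cells sorted from the small intestine. The WT library came from *Neurog3*Cre; Rosa26tdtomato mice, in which descendants of cells that expressed *Neurog3*, a gene of endocrine progenitors, stay red. The NFKO library came from *Neurog3*Cre-*FoxO1* fl/fl; Rosa26tdtomato mice, in which the same Cre should also delete *FoxO1*. Each group was 1 library that pooled 4 to 5 mice aged 4 to 6 weeks, so no value has a replicate and no test between genotypes was possible.

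K cells are enteroendocrine cells, found mostly in the upper small intestine, that release GIP when nutrients, fat and glucose above all, reach the gut lumen. GIP acts on its receptor in pancreatic beta cells to raise insulin secretion, and in adipose tissue it favours lipid storage. Enteroendocrine cells arise from progenitors that pass through a *Neurog3* stage and are told apart by the hormone that each makes most, although a cell often holds more than 1 hormone transcript.

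The upstream sequence of *Gip* is shown because K cells are known to use GATA and homeodomain factors, among them Pdx1, at this gene. *Gip* (ENSMUSG00000014351) occupies bases 96024545 to 96030831 of chromosome 11 in GRCm38 (plus strand), the build of all positions given here. In the 250 bases before its start (chr11:96024295-96024544 of GRCm38.p6, plus strand, from RefSeq) a motif of GATA factors, spelled AGATAA, occurred at 2 places. The core of homeodomain sites, spelled TAAT, occurred at 5 places, none of which overlaps the former. *Rbp4* is shown because its first window held the only match among the members with a window to GTAAACA, a FoxO core (chr19:38125322-38125571, minus strand). *Nnat* is shown because, after *Gip* itself, it was the member most restricted to *Gip*-rich cells, and its window held no match to any of the 3 (chr2:157559828-157560077, plus strand). Matches on either strand are in capitals, and the sequences read 5′ to 3′ along the gene.
Gip: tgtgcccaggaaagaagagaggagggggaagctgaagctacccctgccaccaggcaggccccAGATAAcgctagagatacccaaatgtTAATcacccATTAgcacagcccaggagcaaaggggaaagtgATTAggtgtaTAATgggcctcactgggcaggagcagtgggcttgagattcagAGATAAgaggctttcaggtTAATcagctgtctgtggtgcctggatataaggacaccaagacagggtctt
Rbp4: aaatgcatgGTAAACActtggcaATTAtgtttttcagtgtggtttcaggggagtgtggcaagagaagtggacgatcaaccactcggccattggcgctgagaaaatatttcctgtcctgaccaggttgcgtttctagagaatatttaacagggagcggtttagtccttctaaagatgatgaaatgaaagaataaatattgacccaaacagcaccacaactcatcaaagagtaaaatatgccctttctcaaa
Nnat: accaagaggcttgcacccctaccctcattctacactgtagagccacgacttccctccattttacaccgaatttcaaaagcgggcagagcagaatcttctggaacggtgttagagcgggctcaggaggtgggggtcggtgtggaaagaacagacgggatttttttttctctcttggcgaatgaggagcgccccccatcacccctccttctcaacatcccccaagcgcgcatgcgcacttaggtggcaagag
Among 32851 mouse promoter windows of this length, the GATA motif was found in 9.99%, the homeodomain core in 54.9% and the FoxO core in 3.17%, so that the homeodomain core is common and the FoxO core rare. Windows were at hand for 8 of the 10 members. *Cd44* and *Pkib* each had 1 GATA motif as well, and the second *Rbp4* window had none of the 3 motifs. A match is a description of letters, not evidence of a site.

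After filtering, 3003 WT and 5292 NFKO cells were kept, with 78424392 and 111522270 unique molecular identifiers (UMIs), each of which marks 1 captured transcript. A level in CPM is a gene's share of the summed UMIs of a group of cells, times 1000000. Brackets give 95% intervals, which cover counting error and nothing else. *Foxo1*, the targeted gene, had 11.5 CPM in WT and 12.4 in NFKO over all cells, a ratio of 1.07 (0.987 to 1.17), so the counts over all cells did not bear out the genotype. Since 3′ counting can miss a deletion elsewhere in the transcript, they cannot check it either, and NFKO means the library labelled NFKO throughout. In the enteroendocrine-like cells defined below *Foxo1* had 26.9 and 22.2 CPM, a ratio of 0.825 (0.719 to 0.948), whose interval lay below 1. In the *Gip*-dominant cells among them it had 35.9 and 27.9 CPM, a ratio of 0.777 (0.583 to 1.05). The libraries also differed in sex: by their sex-linked transcripts, WT held 2424 male-typed and 6 female-typed cells and NFKO 357 and 4357. Sex and label cannot be told apart except in the male-typed cells of NFKO. The libraries shared 6 barcodes, 4 of them among the kept cells.

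Clusters made without the members were named from marker genes, and 1039 WT and 2017 NFKO cells fell into enteroendocrine-like clusters, with all 12 markers of that list present. Within them a cell was called *Gip*-dominant when *Gip* was the largest of 7 hormone transcripts and reached 5000 CPM, which makes it a range of levels rather than a type. There were 211 such cells in WT, 20.3% (17.9 to 22.9, Clopper-Pearson) of the enteroendocrine-like cells. In NFKO there were 424, or 21.0% (19.3 to 22.9). The intervals overlapped. Among cells with at least 5000 UMIs, however, the shares were 15.9% in WT (134 of 845 cells) and 20.8% in NFKO (377 of 1816), so the likeness of the shares depended on shallow cells. Among cells with *Gip* as the largest of the 7, few lay near the limit. The lowest included cell had 6021 CPM of *Gip* in WT and 5172 in NFKO, and the highest cell under the limit had 4153 and 4239. Cells with over 5000 CPM of *Gip* but more of another of the 7 hormones were kept out too. Marker lists of other cell types differed in how far they were seen in these cells. The 7 Paneth markers summed to 1925 CPM in WT and 1585 in NFKO, the 8 goblet markers to 1240 and 2778 and the 8 enterocyte markers to 877 and 1446. The 6 pancreatic acinar markers summed to 48.5 and 81.3 CPM, but only 2 of them had a UMI in WT and only 1 in NFKO. The part of all these in the results was not tested. The 8 immune markers summed to 0 and 0.151 CPM, and 4 of 5 adipocyte markers, *Adipoq* and *Plin1* among them, were at 0 in both libraries.

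The level of *Gip* in these cells differed between the libraries. The *Gip*-dominant cells had 196218 *Gip* UMIs in WT, or 108200 CPM, and 1300821 in NFKO, or 197000 CPM, a ratio of 1.82 (1.81 to 1.83). Cell by cell, *Gip* took a median of 7.47% of the UMIs in WT, from 0.602% to 34.9%. In NFKO it took a median of 19.2%, from 0.517% to 48.8%. The ranges overlapped widely, but 204 NFKO cells (48.1%) gave over 20% of their UMIs to *Gip*, against 26 WT cells (12.3%). Other measures of these cells moved with the library. WT *Gip*-dominant cells were shallower (median 7028 against 16660 UMIs), had more mitochondrial UMIs (median 6.68% against 2.34%), more heat shock transcripts (580 against 105 CPM for *Hspa1a* and *Hspa1b*) and more male-typed cells (70.6% against 5.42%). In the 23 male-typed NFKO cells *Gip* was at 224700 CPM, beside 105100 in the 149 male-typed WT cells, a ratio of 2.14 beside 1.82 over all *Gip*-dominant cells. With at least 5000 UMIs required of each cell the ratio was 1.69. The part of depth, mitochondrial share, heat shock transcripts and sex in the result was not tested.

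**Figure D1:**
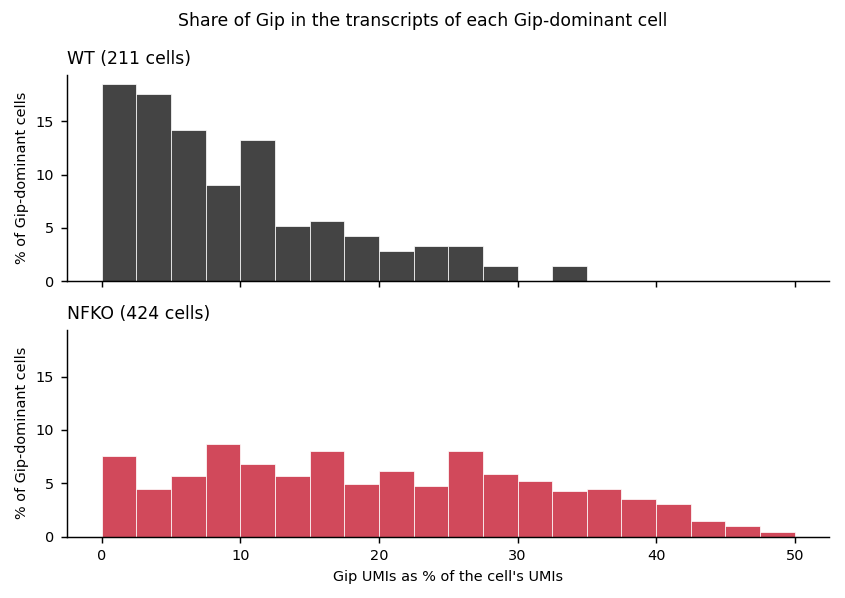
Histograms of the percent of a cell's UMIs that are *Gip* (x axis) against the percent of *Gip*-dominant cells (y axis), WT above and NFKO below. The WT cells crowd at low shares with a median of 7.47% and none above 34.9%, while the NFKO cells spread up to 48.8%.

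The 10 genes were all higher in enteroendocrine-like cells than in goblet-like, Paneth-like, enterocyte-like, tuft-like, stem-like and cycling cells, in both libraries. *Gip* UMIs were found outside the endocrine cells too. *Gip* was seen in 7.78% of WT goblet-like cells thinned to 2000 UMIs and in 42.1% of NFKO ones, at 39.4 and 337 CPM, a ratio of 8.56 (7.94 to 9.23), while all kept cells together held 2620 and 12370 CPM. Median depths were 24210 and 21940 UMIs in goblet-like cells. In NFKO goblet-like cells 44.0% of the *Gip* UMIs lay in 3 cells, and cycling cells of NFKO, where 43.9% lay in 3 cells, reached 1498 CPM. These UMIs are not read as expression, and the part of free RNA in them was not tested. *Cd44*, a receptor for hyaluronan that also marks crypt base cells, was also seen in cells that are not endocrine: stem-like cells had 27.6 and 21.9 CPM and tuft-like cells 34.6 and 34.0, against 0.844 and 1.79 in goblet-like cells. *Fabp5* stood higher as well in stem-like (62.0 and 107 CPM) and cycling cells (52.9 and 157) than in goblet-like cells (14.6 and 39.8). The members also occurred together in single cells. After thinning to 2000 UMIs, at least 3 of the 9 genes other than *Gip* were seen together in 86.5% (81.1 to 90.9) of WT and 95.5% (93.0 to 97.3) of NFKO *Gip*-dominant cells. Among goblet-like cells this held for 0 of 836 and 2 of 1507, and among the other hormone subtypes the highest shares were 28.1% in WT (*Cck*-dominant) and 34.7% in NFKO (*Sst*-dominant). Member by member at this depth, *Rbp4* was seen in 85.5% of NFKO and 59.6% of WT *Gip*-dominant cells, *Pkib* in 48.8% and 34.6%, and *Lpl* in 15% and 1.92%. *Gatm*, *Cd44*, *Plcxd3* and *Sphkap* differed by little. In all, 8 of the 9 had the larger share in NFKO, but only 5 when thinned to 5000 UMIs, where *Gatm*, *Cd44* and *Plcxd3* were seen more often in WT.

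**Figure D2:**
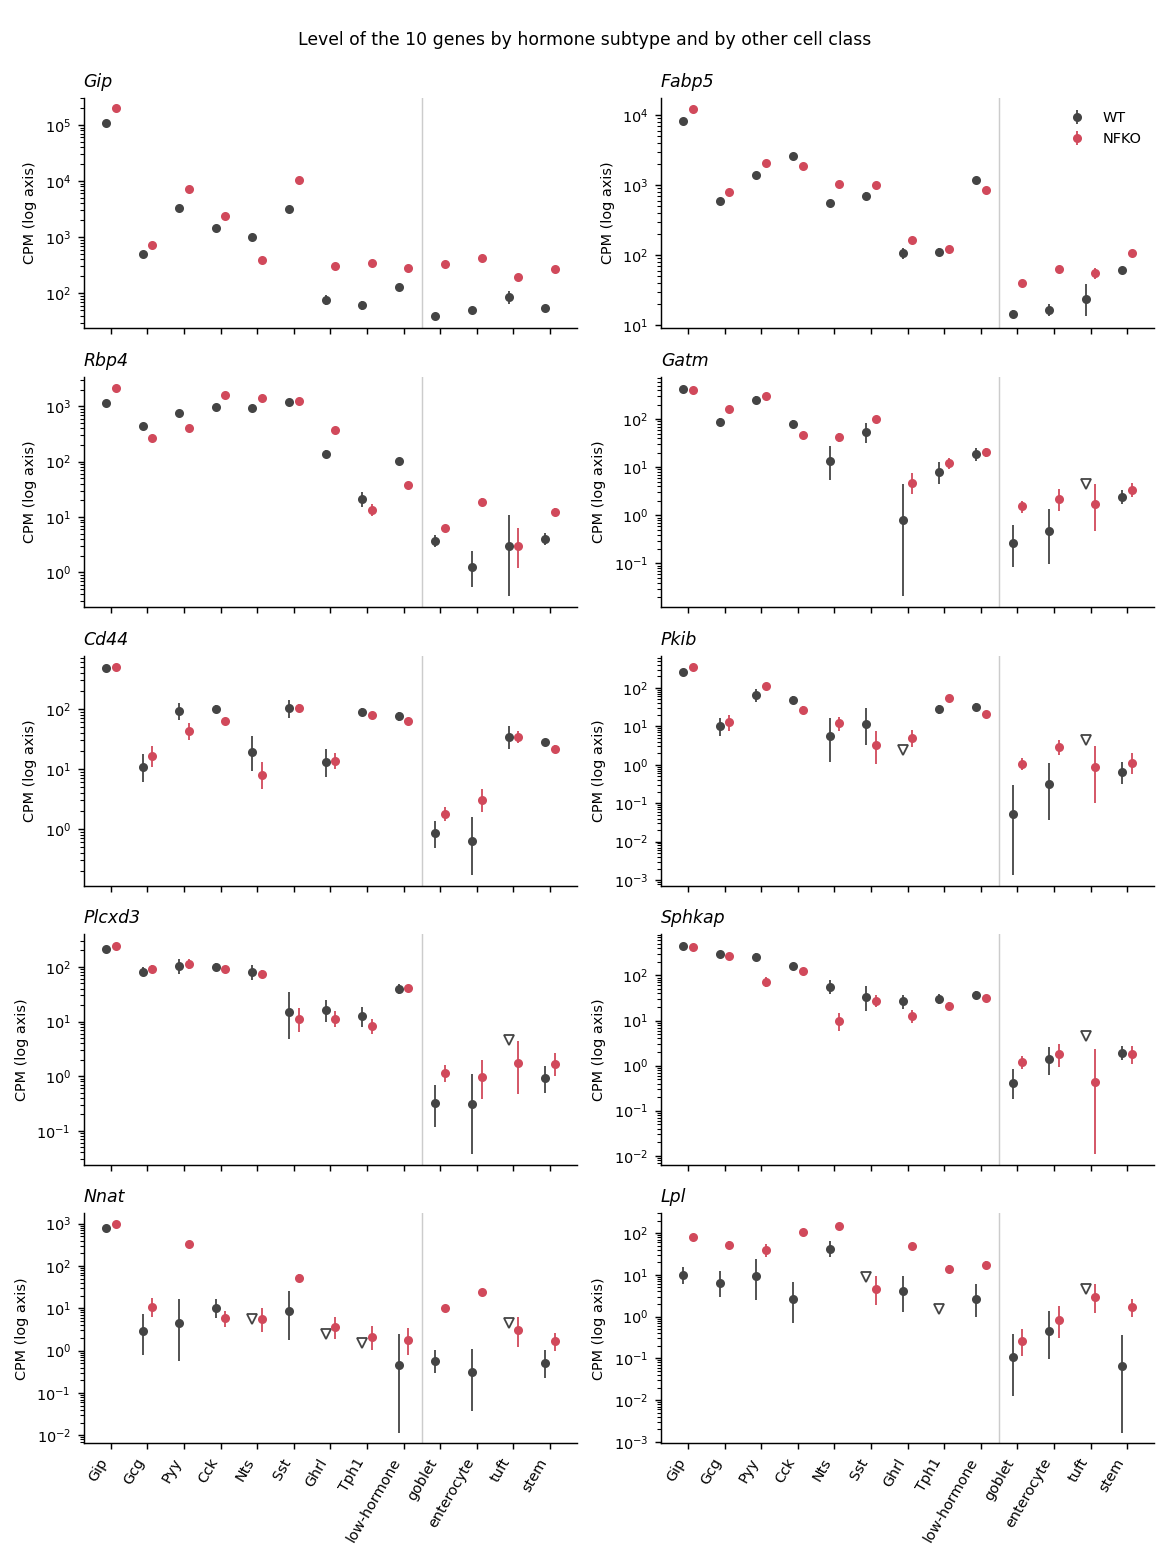
Level of each of the 10 genes in CPM (log axis) in the 9 hormone subtypes of enteroendocrine-like cells and, right of the grey line, in 4 other classes, for WT (dark) and NFKO (red). Bars are 95% Poisson intervals, and open triangles mark the limit of 3 UMIs where no UMI was seen; 8 of the 10 genes peak in *Gip*-dominant cells in both libraries, while *Lpl* peaks in *Nts*-dominant cells.

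Across the 9 hormone subtypes, 8 of the 10 genes had their highest level in *Gip*-dominant cells in both libraries. Of the members, 9 were at least 2-fold higher there than in the other enteroendocrine-like cells of their library, in WT as in NFKO. None was 2-fold lower. Over all genes measured 4.46% were higher by that limit in WT and 4.39% in NFKO, and 4.91% and 6.38% were lower, but this contrast is the one that chose the members and nothing is read from the count. The genes differed in how sharply they marked these cells and in which cells came next, as follows.

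*Fabp5* encodes a cytosolic fatty acid binding protein that carries long-chain fatty acids and is known in K cells. It lies on chromosome 3 from 10012548 to 10016607 (plus strand). It stood at 8209 CPM in WT and 12310 in NFKO *Gip*-dominant cells. The next subtypes were *Cck*-dominant cells in WT (2636 CPM) and *Pyy*-dominant cells in NFKO (2050 CPM), and *Ghrl*-dominant and *Tph1* cells were lowest, from 107 to 166 CPM. A few cells set both second places. Of the 4033 *Fabp5* UMIs of the 115 WT *Cck*-dominant cells, 3683 came from 31 cells that lay in the *Gip*-led cluster 2, described below. In the NFKO *Pyy*-dominant cells 57.45% of the UMIs came from 3 cells. *Fabp5* was present in nearly every *Gip*-dominant cell, with 7 of 211 WT cells and 1 of 424 NFKO cells at 0. *Gip*-dominant cells held 62.4% of all enteroendocrine *Fabp5* UMIs in WT and 81.0% in NFKO.

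*Rbp4* encodes the plasma carrier of retinol. It lies on chromosome 19 from 38116629 to 38125281 (minus strand). Its levels were shared by several hormone subtypes. In WT, *Sst*-dominant cells had 1179 CPM (1066 to 1300) and *Gip*-dominant cells 1139 (1091 to 1190), which do not differ beyond counting error, followed by *Cck*-dominant (981) and *Nts*-dominant cells (922). In NFKO the *Gip*-dominant cells led with 2189 CPM, before *Cck*-dominant (1621), *Nts*-dominant (1430) and *Sst*-dominant cells (1278). *Tph1* cells, the enterochromaffin group that makes serotonin, had only 21.0 and 13.4 CPM. *Gcg*-dominant cells had 445 and 273 CPM and *Ghrl*-dominant cells 140 and 372. *Rbp4* was thus shared by several peptide hormone subtypes, at unlike levels.

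*Gatm* encodes the amidinotransferase that starts creatine synthesis, on chromosome 2 from 122594467 to 122611303 (minus strand). It had 430 CPM in WT and 412 in NFKO *Gip*-dominant cells, with *Pyy*-dominant cells next (254 and 303 CPM) and *Ghrl*-dominant cells lowest (0.813 and 4.76 CPM). *Cd44*, on chromosome 2 from 102811141 to 102901665 (minus strand), stood at 480 and 504 CPM, while the next subtype, *Sst*-dominant cells, had 103 and 105. *Pkib*, an inhibitor of cAMP-dependent protein kinase (PKA) on chromosome 10 from 57631981 to 57741112 (plus strand), had 266 and 357 CPM, before *Pyy*-dominant cells with 64.2 and 110. *Cd44* and *Pkib* hence separated the *Gip*-dominant cells from the next subtype more widely than *Gatm* did.

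*Plcxd3* belongs to a family with a phospholipase C catalytic domain (chromosome 15, 4375491 to 4575553, plus strand). It had 215 CPM in WT and 242 in NFKO *Gip*-dominant cells, and *Pyy*-, *Gcg*-, *Cck*- and *Nts*-dominant cells all carried 74.2 to 115 CPM. *Sphkap* encodes an anchoring protein that binds PKA regulatory subunits (chromosome 1, 83254139 to 83408200, minus strand). It had 448 and 419 CPM, before *Gcg*-dominant cells with 293 and 265. *Gip*-dominant cells held 44.2% of WT enteroendocrine *Plcxd3* UMIs and 45.0% of *Sphkap* UMIs, the lowest shares in WT among the 8 members that peaked there.

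*Nnat* encodes neuronatin, a small membrane proteolipid made from an imprinted locus (chromosome 2, 157560078 to 157562522, plus strand). It was the most restricted of the 9 members other than *Gip*. *Gip*-dominant cells had 793 CPM in WT and 981 in NFKO and held 98.2% and 93.7% of all enteroendocrine *Nnat* UMIs. The next subtype had 10.5 CPM in WT (*Cck*-dominant) and 324 in NFKO (*Pyy*-dominant), where 83.5% of the UMIs came from 3 cells. In NFKO, *Nnat* outside the endocrine cells was concentrated in the same way, with 91.7% of its 180 enterocyte-like UMIs in 3 cells. *Blcap* overlaps *Nnat* on the opposite strand and had 67.3 and 93.6 CPM. The sources used here do not give how strand entered the counting.

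Within the *Gip*-dominant cells *Nnat* was spread unlike any other member that peaked there. It had no UMI in 153 of 211 WT cells (72.5%) and 194 of 424 NFKO cells (45.8%), yet it reached 28540 and 23790 CPM in the highest cell. The 29 WT cells with at least 1000 CPM held 93.5% of the *Nnat* UMIs, and the 82 such NFKO cells 92.1%. These cells were otherwise alike in their *Fabp5*, which stood at 7986 CPM in WT cells rich in *Nnat* against 8240 in cells without it. In NFKO it stood at 11580 and 12620 CPM. *Cd44* had 319 and 514 CPM in WT, and 448 and 522 in NFKO. *Rbp4* went opposite ways in the libraries, with 724 against 1172 CPM in WT and 2759 against 2107 in NFKO. Depth did not separate the cells rich in *Nnat* from those without it (median 6517 against 7028 UMIs in WT, 15380 against 15570 in NFKO).

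**Figure D3:**
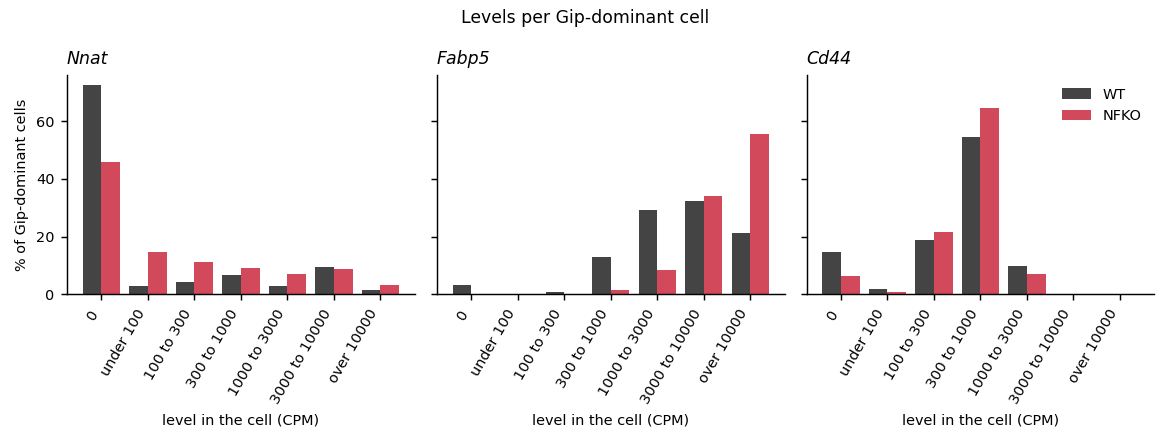
Percent of *Gip*-dominant cells (y axis) by the level of *Nnat*, *Fabp5* or *Cd44* in the cell in CPM (x axis), WT dark and NFKO red. *Nnat* was at 0 in 72.5% of WT and 45.8% of NFKO cells with a tail up to 28540 CPM, whereas *Fabp5* had medians of 3690 and 10850 CPM and *Cd44* of 418 and 454.

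*Lpl* encodes lipoprotein lipase, which releases fatty acids from circulating triglycerides (chromosome 8, 68880491 to 68907448, plus strand). It did not peak in *Gip*-dominant cells. Its highest level was in *Nts*-dominant cells, with 41.8 CPM (26.2 to 63.2) in WT and 151 (134 to 169) in NFKO. *Gip*-dominant cells had 9.93 CPM from 18 UMIs in WT and 81.5 from 538 UMIs in NFKO, behind the NFKO *Cck*-dominant cells at 106. *Lpl* was the member with the largest ratio between the libraries over the *Gip*-dominant and over the other enteroendocrine-like cells, and its interval lay above 1 in 8 of the 9 subtypes. The ratio was 40.5 (15.7 to 149) in *Cck*-dominant, 12.1 (5.10 to 37.9) in *Ghrl*-dominant, 8.21 (5.14 to 13.95) in *Gip*-dominant, 8.18 (4.10 to 18.6) in *Gcg*-dominant and 3.62 (2.34 to 5.86) in *Nts*-dominant cells. In *Tph1* cells, with no UMI in WT and 72 in NFKO, the ratio was 9.30 with 3 UMIs put in place of the 0 of WT. In *Sst*-dominant cells *Lpl* was at or near 0 in both libraries, with 0 and 7 UMIs. In goblet-like cells the counts were 2 and 8 UMIs, a difference not detectable at this depth. No class outside the endocrine cells had more than 18 *Lpl* UMIs in NFKO, and the 18 of the stem-like cells stood beside 1 in WT.

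The male-typed cells gave *Lpl* the same direction. Male-typed *Gip*-dominant cells had 10.4 CPM (5.80 to 17.1) of *Lpl* in WT and 75.6 (50.6 to 109) in NFKO, and female-typed NFKO cells had 82.0. *Lpl* is a gene of adipose tissue as well, and the adipocyte markers *Adipoq*, *Plin1*, *Lep* and *Cfd* were at 0 in these cells.

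Between the libraries, 6 of the 10 members were at least 1.5-fold higher in NFKO over all enteroendocrine-like cells: *Gip* (2.58), *Fabp5* (1.65), *Rbp4* (1.86), *Pkib* (1.60), *Nnat* (1.85) and *Lpl* (9.72). None was 1.5-fold lower. Of the 3591 genes measured there, 3.04% were higher and 3.26% lower by that limit. *Gatm*, *Cd44* and *Plcxd3* lay between 1.16 and 1.22, and *Sphkap* at 0.882 (0.834 to 0.932). The median log2 ratio was 0.70 over the members and 0.01 over all genes. In male-typed cells alone 3 members passed, *Gip*, *Rbp4* and *Pkib*, with *Fabp5* at 1.15 and *Nnat* at 1.23, and *Lpl* at 6.17 under the minimum level. The libraries' levels were in view when the members were picked, so this count is a description.

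Within the *Gip*-dominant cells 3 of the 10 were at least 1.5-fold higher, *Gip*, *Rbp4* (1139 to 2189 CPM, 1.92, 1.83 to 2.01) and *Lpl*, and none was lower, while 4.2% of 3450 genes were higher and 11% lower. The median log2 ratio was 0.36 over the members and -0.04 over all genes. *Fabp5* lay just under the limit at 1.5 (1.47 to 1.53). *Pkib* had 1.34 (1.21 to 1.48), *Nnat* 1.24 (1.17 to 1.31) and *Plcxd3* 1.12 (1.01 to 1.26). *Gatm* at 0.959 (0.885 to 1.04), *Cd44* at 1.05 (0.976 to 1.13) and *Sphkap* at 0.936 (0.866 to 1.01) did not differ beyond counting error. Hormones took 24.9% of the UMIs of these cells in NFKO and 13.6% in WT, which lowers the CPM of the other genes. With hormone UMIs left out of the totals, *Fabp5* (1.73), *Rbp4* (2.21), *Pkib* (1.54) and *Lpl* (9.44) passed the limit, 4 of the 9 members other than *Gip*, beside 13.4% of all genes higher and 4.9% lower. On that scale the ratios of *Gatm* (1.10) and *Sphkap* (1.08) lay above 1, so their direction depends on the scale. In male-typed cells the *Fabp5* ratio was 1.203 and the *Rbp4* ratio 1.49, both under the limit, the *Pkib* ratio was 1.83, and that of *Nnat* turned to 0.884 (0.766 to 1.02).

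**Figure D4:**
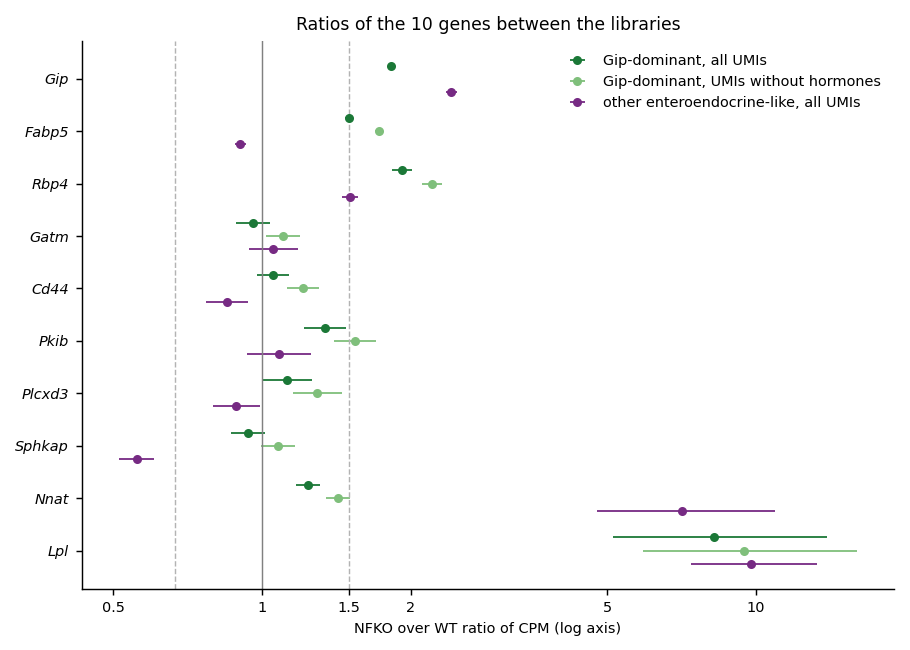
Ratio of the NFKO level to the WT level for each of the 10 genes (log axis, 95% counting intervals) in *Gip*-dominant cells on all UMIs and on UMIs without hormones, and in the other enteroendocrine-like cells. Dashed lines mark 1.5-fold either way; *Lpl* lies near 8 to 10 in both cell groups, *Nnat* at 1.24 in *Gip*-dominant and 7.07 in other cells, and *Fabp5* at 1.5 and 0.903.

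In the enteroendocrine-like cells without *Gip* dominance the members went different ways. Of the 7 that passed the minimum level, *Gip*, *Rbp4* and *Lpl* were at least 1.5-fold higher and *Sphkap* was lower, beside 3.42% and 2.76% of 3627 genes, and the median log2 ratio was -0.15 over those with a value and 0.03 over all genes. *Fabp5* had 926 CPM in WT and 836 in NFKO, a ratio of 0.903 (0.880 to 0.926). It was lower in NFKO only in *Cck*-dominant (0.721) and low-hormone cells (0.732). In every other subtype of these cells its level was higher in NFKO, as in *Nts*-dominant (1.89), *Pyy*-dominant (1382 to 2050 CPM) and *Gcg*-dominant cells (600 to 792 CPM). In *Tph1* cells the step was small (112.5 to 122.4 CPM). *Cck*-dominant and low-hormone cells lay in part in the *Gip*-led cluster 2, described below. There *Fabp5* had 7545 and 6772 CPM in *Cck*-dominant cells and 3888 and 3545 in low-hormone cells. Cluster 2 held 31 of 115 *Cck*-dominant cells in WT and 40 of 217 in NFKO. It held 49 of 193 low-hormone cells in WT and 57 of 312 in NFKO. The part of these shares in the *Fabp5* ratio of the enteroendocrine-like cells without *Gip* dominance was not tested. *Sphkap* had 103 and 57.2 CPM, a ratio of 0.557 (0.512 to 0.605). Its level was lower in NFKO in every subtype of these cells, by unlike steps. *Pyy*-dominant cells had 264 and 72.5 CPM, where 40.0% of the 115 WT UMIs came from 3 cells. *Gcg*-dominant cells, with 410 of the 994 WT UMIs, had 293 and 265 CPM. They were 9.91% of enteroendocrine-like cells in WT and 4.51% in NFKO, and *Tph1* cells, low in *Sphkap*, 16.9% and 23.4%. The part of this shift in subtypes in the *Sphkap* ratio was not tested. *Rbp4* had 390 and 587 CPM, a ratio of 1.51 (1.45 to 1.56), with ratios of 2.66 in *Ghrl*-dominant and 1.65 in *Cck*-dominant cells but 0.531 in *Pyy*-dominant and 0.614 in *Gcg*-dominant cells. *Nnat*, under the minimum level, had 2.69 CPM from 26 UMIs and 19.0 from 433, a ratio of 7.07 (4.76 to 10.95), and 52.7% of the NFKO UMIs came from 3 cells. *Gip* itself had 674 and 1627 CPM there, a ratio of 2.42 (2.35 to 2.48) that stands beside the ratio of 8.56 in goblet-like cells. The part of free *Gip* RNA in it was not tested.

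The *Gip*-dominant cells lay mostly in 2 clusters. Cluster 2, led by *Gip*, *Fabp5* and *Cnr1*, held 111 of the WT and 342 of the NFKO cells, and cluster 14, led by *Nnat* and *Pdk4* and with a median of 3242 UMIs, held 98 and 60. The WT cells thus came more often from the shallow cluster. There *Fabp5* had 1953 CPM in WT and 4181 in NFKO, against 10210 and 12950 in cluster 2, while *Cd44* hardly differed between the clusters (457 and 462 against 495 and 513 CPM). In cluster 2 alone the ratio between the libraries was 1.74 for *Gip*, 1.27 for *Fabp5*, 1.65 for *Rbp4*, 1.59 for *Nnat* and 7.64 for *Lpl*. Cluster 2 also held low-hormone cells, 49 in WT and 57 in NFKO, in which *Gip* had 331 and 566 CPM and *Nnat* 0 and 1 UMI. These cells had *Fabp5* at 3888 and 3545 CPM, well above the 1173 and 859 CPM of all low-hormone cells. Hence *Fabp5* and *Nnat* parted in cells with little *Gip*.

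The same order was seen when all enteroendocrine-like cells were grouped by their own *Gip* level, on UMIs without hormones. In the 25 WT cells with 1000 to 5000 CPM of *Gip*, *Fabp5* was already at 7291 CPM, against 454 in cells under 100 CPM and 6684 in cells from 5000 to 50000. *Nnat* was at 10.1 CPM in those 25 cells and at 376 in the next group. In the 109 NFKO cells of the same range *Fabp5* was at 3150 CPM and *Nnat* at 10.3, and in the next group they were at 9114 and 658. *Nnat* was thus low below 5000 CPM of *Gip* and high above it in both libraries, and *Fabp5* was raised on both sides. *Rbp4* kept climbing to the top, from 1578 CPM in NFKO cells with 5000 to 50000 CPM of *Gip* to 4974 above 300000. *Cd44* went from 380 to 657 over the same span, and *Lpl* in NFKO from 48.6 (37.9 to 61.4) to 134.5 (111.7 to 160.6), although *Lpl* was already at 46.7 CPM in cells under 100 CPM of *Gip*.

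**Figure D5:**
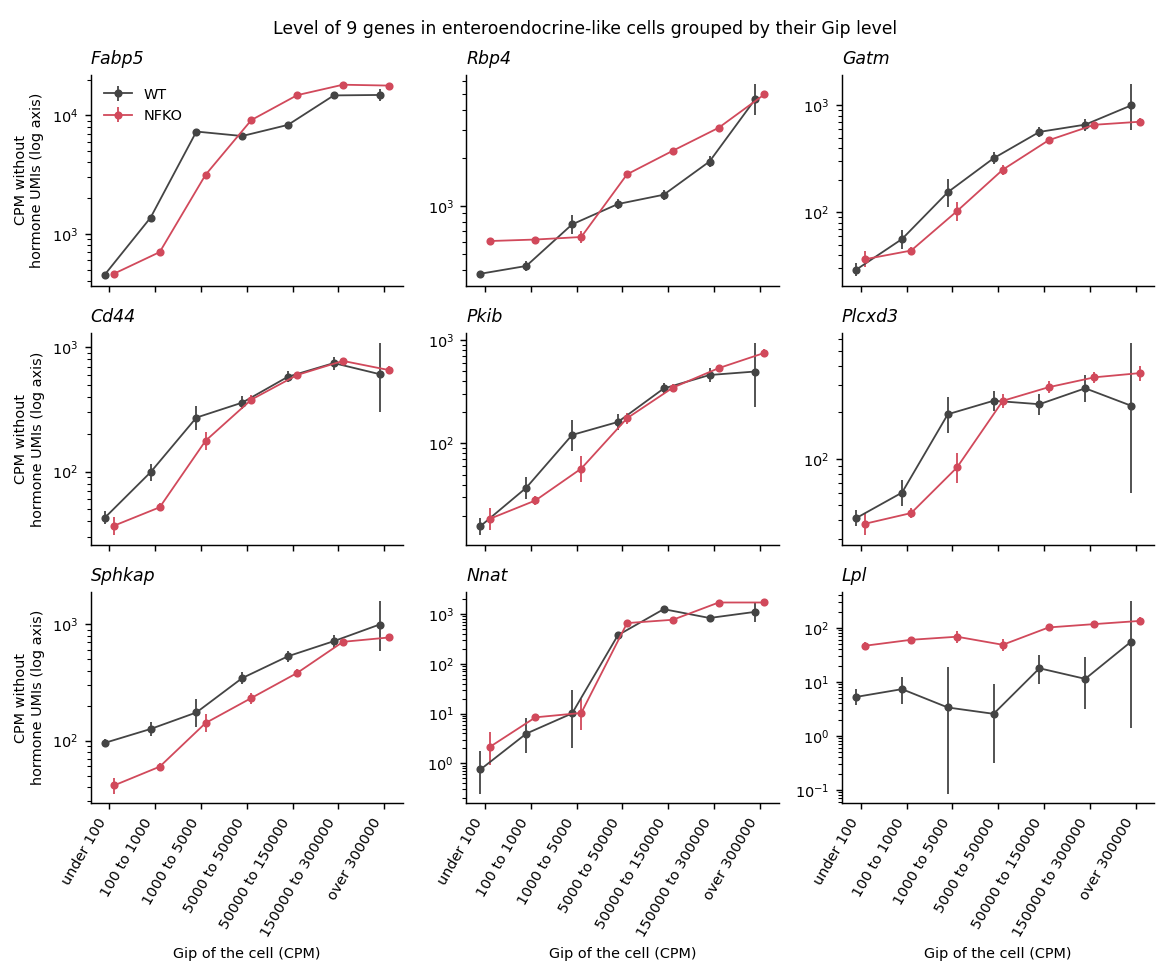
Level of the 9 genes other than *Gip* in CPM without hormone UMIs (log axis) in enteroendocrine-like cells grouped by the cell's *Gip* level (x axis, CPM), WT dark and NFKO red, with 95% Poisson intervals. *Nnat* steps up between the groups below and above 5000 CPM, *Fabp5* is already raised from 1000 to 5000 CPM, and NFKO *Lpl* lies at 46.7 to 68.5 CPM below 50000 CPM of *Gip* and at 101.7 to 134.5 above; the highest WT group has only 3 cells.

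Among *Gip*-dominant cells the members followed *Gip* to degrees that depended on the member and on the scale. On UMIs without hormones, cells above the median *Gip* share had more *Pkib* than cells below it. The levels were 395 against 210 CPM in WT (ratio 1.89) and 643 against 352 in NFKO (1.83). *Sphkap* had ratios of 1.67 and 2.002, *Rbp4* 1.78 and 1.88, and *Nnat* 1.49 and 2.05. *Fabp5*, at 1.54 in WT, was at 1.16 in NFKO, and *Cd44* had 1.47 and 1.10. In WT the cells above the median were also deeper (8544 against 4922 UMIs), while in NFKO they were not (16410 against 16880). Spearman's rho with *Gip* was taken over single cells thinned to 2000 UMIs, hormones included, where more *Gip* leaves fewer UMIs for the members. It ran from -0.02 to 0.29 in 208 WT cells and from -0.12 to 0.30 in 400 NFKO cells. *Fabp5* was highest in WT and *Rbp4* highest in NFKO, where *Fabp5* was lowest at -0.12. These cells share a library and the values are descriptions. *Fabp5* and *Rbp4* moved together in WT (rho 0.49) and not in NFKO (0.05).

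The likeness of other genes to *Gip* was taken as Pearson's r of log2(CPM + 1) over 32 units, each a class or hormone subtype of 1 library. *Nnat* ranked 1 of 6297 genes (r = 0.89), *Gatm* ranked 4 (0.84), *Fabp5* 5 (0.83), *Pkib* 15 (0.76) and *Rbp4* 19 (0.75). *Lpl* ranked 310 (0.55). Of genes that were no members the most alike was *Cnr1*, the cannabinoid receptor, with r = 0.87 and 347 and 404 CPM in *Gip*-dominant cells against at most 75.6 elsewhere. *Inhbb*, *Tmprss7*, *Pls3*, *Alpl*, *Rgs4*, *Fam167a*, *Blcap*, *Asgr1* and *Ctso* came next, from 0.85 to 0.77. *Rgs4* was higher still in *Sst*-dominant cells of WT (931 CPM), and *Asgr1* in those of NFKO (61.0 CPM). The members were picked for leading in the *Gip*-rich cells of these libraries, so nothing is read from their ranks. The units share libraries and depth, and no p-value is given.

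Genes that work with the members were counted in *Gip*-dominant cells from fixed lists of pathway genes, beside the 4.2% higher and 11% lower over all genes. Of 19 partners of *Fabp5* and *Lpl* in fatty acid binding and lipolysis, 4 passed the minimum, and *Fabp1* (179 to 420 CPM, 2.35) and *Fabp2* (71.7 to 158 CPM, 2.21) were higher. Both are enterocyte genes. They are among the 8 enterocyte markers, whose sum was also higher in NFKO (1446 against 877 CPM), and the part of RNA from other cells was not tested. The lipase partner *Gpihbp1* had no UMI in either library. Of 15 genes of retinoid handling 4 passed, with *Ttr*, which carries the retinol binding protein in plasma, at 2.27 and the retinol transporter gene *Stra6l* at 0.631. Neither of the 2 creatine genes that passed, of 6, nor any of 5 PKA genes, of 14, went past the limit. *Plcxd2*, of the same family as *Plcxd3*, had 60.1 and 38.9 CPM (0.647), and none of 6 hyaluronan genes passed the minimum beside *Cd44*. With hormones left out of the totals *Stra6l* (0.725) and *Plcxd2* (0.745) no longer passed, while *Bco1* (1.587), *Prkacb* (1.69) and *Blcap* (1.6) did, beside the 13.4% of genes higher on that scale. The median log2 ratio was 0.47 for the fatty acid list, 0.35 for the retinoid list, 0.11 for the PKA list and -0.04 over all genes.

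Of 13 transcription factors of K cells and endocrine cells 12 passed. *Pdx1*, which is known to act at the *Gip* promoter, had 36.4 CPM in WT and 81.2 in NFKO (2.23, 1.72 to 2.93). In cluster 2 alone it had 40.3 and 78.0 CPM. *Rfx6*, a regulator of endocrine differentiation, was lower (548 to 302 CPM, 0.552), as was *Etv1* (200 to 125 CPM, 0.624). *Rfx6* was also among the 10 genes that led the shallow cluster 14. That cluster held 98 of the 211 WT and 60 of the 424 NFKO *Gip*-dominant cells. Its part in the *Rfx6* ratio was not tested. None of the 7 nutrient sensing genes that passed, of 12, went past the limit. Among 9 genes of prohormone processing and granins that passed, *Scg5* was higher (225 to 413 CPM, 1.84). With hormones left out of the totals the limit was passed upward by 2 transcription factors, 1 nutrient sensing gene and 2 processing genes, and downward by *Rfx6* alone, where 13.4% of all genes were higher and 4.9% lower.

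Other hormones also differed in the *Gip*-dominant cells. *Sst* had 14.3 CPM in WT and 719 in NFKO, a ratio of 50.2, but 92.5% of the NFKO UMIs came from 16 cells that lay in the *Sst*-led cluster 18, and *Iapp* (2.21 to 119 CPM) had 63.9% of its NFKO UMIs there. In cluster 2 *Sst* had 12.5 and 52.0 CPM. *Nts* (34.7 to 630 CPM) had 59.5% of its NFKO UMIs in 6 cells outside clusters 2, 14 and 18. *Sct*, the secretin gene, was spread over the cells, with 19640 and 38900 CPM and a ratio of 1.98, and *Pyy* had 1266 and 3368. *Gcg* (1262 to 489 CPM) and *Tac1* (392 to 102 CPM) were lower in NFKO, although 77.0% of the 2214 *Gcg* UMIs of the WT cells in cluster 2 came from 3 cells. A few cells thus set several of these ratios.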

How the data were processed

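Sorted cells were run on the 10x Genomics 3′ platform, and the authors deposited raw UMI counts of 32285 genes per barcode, from Cell Ranger 5.0.1 on mm10 per the labels. The members and lists were chosen with earlier results of these data known. Barcodes were kept from 500 genes and 1000 UMIs upward if no more than 25% of UMIs were mitochondrial. Scrublet (scanpy 1.11.5) marked only 3 and 0 cells by its automatic limit, so the cells with the highest scores, 0.8% per 1000 barcodes, were removed (126 and 340). The remaining cells were clustered in Seurat 5.3.0 (2000 variable genes, 30 components, resolution 0.8), leaving out 20 genes: the members, *Foxo1*, insulin genes, *Iapp* and sex-linked genes. Clusters took a name from at least 3 listed markers that were 2-fold higher and seen in 10% of cells. Counts were summed per class and library, with exact Poisson, Clopper-Pearson or conditional binomial intervals. Only the conditional binomial intervals of ratios were tried on simulated data. Those counts were drawn as Poisson counts, without the clumping of UMIs in single cells. Genes entered a comparison from 50 CPM in 1 library and 100 UMIs in all. Named genes were the members, *Foxo1*, hormones, list genes past 1.5-fold (at most 3 each way per list) and the 10 genes most like *Gip*; *Gpihbp1*, *Hspa1a*, *Hspa1b*, *Adipoq*, *Plin1*, *Lep*, *Cfd* and *Pdk4* were named after their values were seen. Alternatives changed the totals, thresholds, clustering, doublet share, depth and sex of the cells.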

Additional observations from a re-analysis of the deposited data

Results flagged for a closer look

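*Fabp5* moved opposite ways in the *Gip*-dominant and the other enteroendocrine-like cells: the ratio of NFKO to WT was 1.5 (1.47 to 1.53) in the first and 0.903 (0.880 to 0.926) in the second. *Plcxd3* did so with smaller steps, at 1.12 (1.01 to 1.26) and 0.886 (0.795 to 0.988). With 1 library per group the difference between the cell groups was not tested, and the intervals cover counting error only. Among the other cells *Fabp5* was lower in NFKO only in *Cck*-dominant and low-hormone cells. A smaller share of both lay in the *Gip*-led cluster 2 in NFKO than in WT, and the part of this was not tested. On UMIs without hormones the *Plcxd3* ratio in the other cells was 0.925 (0.830 to 1.03), so that its lower level there was within counting error on that scale.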

How the results depend on the processing

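With 1 library per group nothing here separates genotype from animals, sex or preparation, and depth limits the rarer members, above all *Lpl* in WT. No paired analysis was possible because each group has a single library. The 10 genes were highest in enteroendocrine-like cells, under each alternative run. In *Gip*-dominant cells of either library 9 were at least 2-fold higher under the same alternatives, *Gip* included where hormones were left out of the totals (8 without it). Of the members at least 1.5-fold higher in NFKO, the 6 over enteroendocrine-like cells became 3 in male-typed cells, and the 3 in *Gip*-dominant cells became 5, *Gip* included, with hormones left out of the totals. The share of *Gip*-dominant cells was 17.52% in WT and 19.83% in NFKO with the limit at 20000 CPM, 20.89% and 23.5% with it at 1000 CPM, 18.04% and 17.56% in male-typed cells, and 15.86% and 20.76% in cells of at least 5000 UMIs. Thinned to 5000 UMIs, 5 rather than 8 members were seen in a larger share of NFKO cells, and 3 rather than 1 had a rho over 0.2 with *Gip* in NFKO. Spearman's rho kept 3 of the 10 genes most like *Gip*. The cause was not tested for any of these. The WT *Nnat* ratio of 295 to other enteroendocrine-like cells ran from 56.5 to 489. Cells of cluster 2, cells of at least 5000 UMIs and sex-typed NFKO cells set beside WT were compared after the data were seen.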

Other observations

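The 16 NFKO *Gip*-dominant cells in the *Sst*-led cluster 18 had 845.5 CPM of *Hhex*, a gene of somatostatin cells, against 8.42 in the 342 NFKO cells of cluster 2, and no WT *Gip*-dominant cell lay in cluster 18 or had a *Hhex* UMI. Cluster 18 held only 36 WT cells beside 114 NFKO cells. *Gip* in *Sst*-dominant cells was at 3203 CPM in WT and 10260 in NFKO. The part of these in the contrast was not tested. *Hhex* is named here after its values were seen. *Iapp* was at 2181 CPM in those 16 cells and at 39.2 in cluster 2. Of their 4393 *Sst* UMIs, 88.4% came from 3 cells, whereas *Hhex* was present in all 16.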
